A study of Drosophila melanogaster with 12 samples.

Results

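RNA from heads of Drosophila melanogaster flies carrying CLKGR, treated with dexamethasone (DEX) or its vehicle, was measured on Affymetrix arrays. The comparison here is the one by day, labelled Zeitgeber time (ZT) 4. ZT counts the hours since lights on. The comparison holds 4 of the 12 arrays of the series, chosen by their titles: 2 DEX arrays at ZT4 and 2 vehicle arrays. Of the vehicle arrays, 1 is titled ZT4. The other has no time in its title; it carries number 1, which the titled ZT4 vehicle array (number 2) leaves free, and its time is only assumed. It is called the untimed vehicle array below. Cycloheximide (CHX), an inhibitor of protein synthesis, was given in both arms; how far it blocked translation was not measured. For the night side, 2 DEX and 2 vehicle arrays at ZT16, also with CHX, were used. The promoter that drives CLKGR, the doses, the length of the treatment, the flies' age and sex and the number of heads per array are not stated in the labels. The labels also leave unsaid whether ZT marks the treatment or the collection, and whether flies or isolated heads were treated. Whether replicate arrays came from different flies is not said either, so each p-value reflects array-to-array spread that could be technical.

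CLOCK (CLK) and its partner CYCLE (CYC) are the transcription factors that drive the fly's circadian clock. They activate the genes period (per), timeless (tim), vrille (vri), Par-domain protein 1 (Pdp1) and clockwork orange (cwo), and the proteins of per and tim then enter the nucleus and inhibit CLK and CYC. In flies under a light cycle, per and tim RNA is low in the morning and high in the early night. GR in such a construct name is commonly the steroid-binding domain of the glucocorticoid receptor, which holds a fused factor inactive until a glucocorticoid such as DEX binds it. The labels do not spell the construct out. The series names CLK targets as its subject, and a block of protein synthesis is used in such designs to hold back effects that need a newly made protein.

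Levels are given on a log2 scale, with the natural log of the value the authors deposited read as the log2 level. That reading was chosen after the values were seen, and under it a difference of 1 is a 2-fold change. If the deposited values are linear intensities, log2 changes are 1.44 times as large and all fold values below are too small. The probe sets kept for testing, 11261 of 18769, had a mean over 8 arrays above 2.779, the 40th percentile. Over these, the DEX ZT4 arrays correlated at 0.98 with each other and the vehicle arrays at 0.976, against 0.967 to 0.974 between the arms. The DEX ZT4 arrays were over 2-fold apart at 165 probe sets and the day vehicle arrays at 262, whereas the ZT16 pairs were at 819 (DEX) and 730 (vehicle). Markers of head cells were present: elav lay between 5.43 and 5.67 and nSyb between 4.66 and 4.85 (neurons), Arr2 between 10.24 and 10.35 and trp between 6.08 and 6.48 (photoreceptors), and Gs2 between 8.51 and 9.17 (glia). The glial factor repo was near the filter level, at 2.65 to 3.49, and brp was below it.

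Few transcripts differed widely between DEX and vehicle by day, and the widest gaps were on the higher side. Across the 11261 probe sets, 1 passed an adjusted p of 0.05 in limma (0.00888% called), a probe set of CG32669, which was higher. At an unadjusted p under 0.05, 384 probe sets (3.41%) were called, 223 higher (1.98%) and 161 lower (1.43%). In this fit, whose spread draws also on the wider ZT16 pairs, these shares lie below the threshold itself. The count was 632 (5.61%) on the 4 day arrays alone and 670 with array weights. With shares this near the threshold, an unadjusted call is a description and not evidence for a gene on its own. In 17.5% of the probe sets both DEX arrays lay above both vehicle arrays, and in 14.2% both lay below. Counted over genes with 1 probe set each, 108 of 7971 (1.35%) were at least 2-fold higher without overlap and 37 (0.464%) at least 2-fold lower. Both counts depend on the arrays used: with 1 array left out, the lower count was 77 without DEX replicate 1, 74 without DEX replicate 2, 87 without the untimed and 141 without the labelled vehicle array. The higher count was 105 to 176 in the same fits, with 176 without DEX replicate 2. With 2 arrays against 2, an exact two-sided permutation test of a single gene cannot go below a p of 0.333, so all p-values below come from limma, whose estimate of spread draws on all genes and on the ZT16 arrays. The median change over all kept genes was -0.0007.

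**Figure D1:**
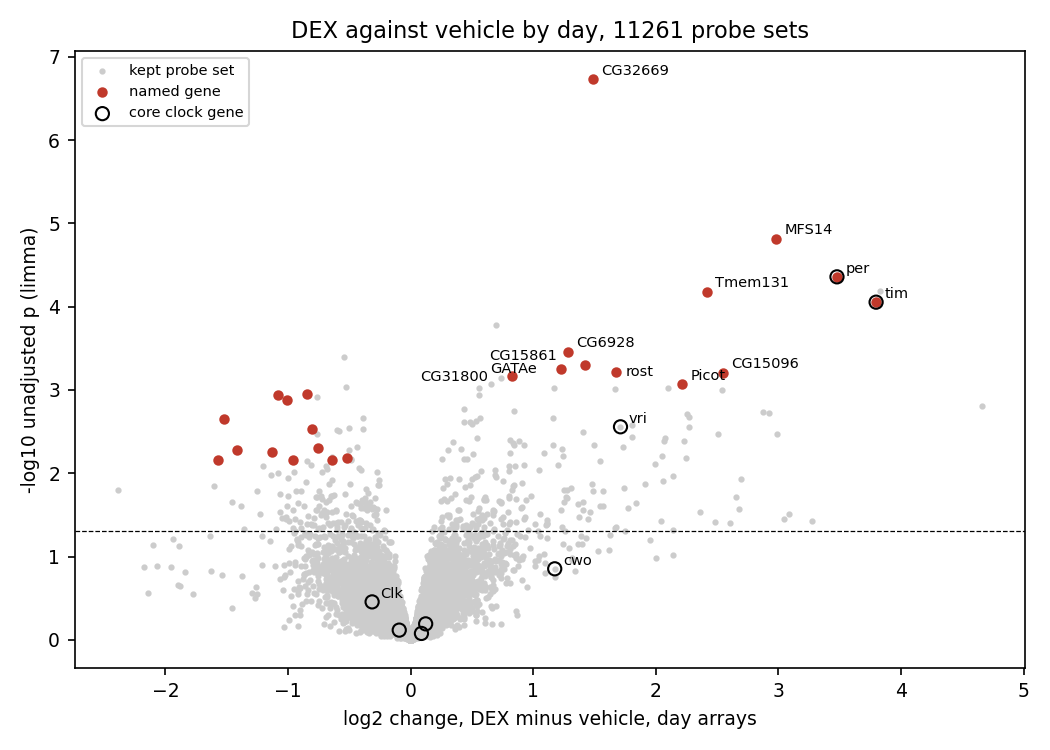
Log2 change (DEX minus vehicle, day arrays) on the x axis against -log10 of the unadjusted limma p on the y axis for 11261 probe sets; red points are the 12 genes named in each direction, black rings the 8 core clock genes, and the dashed line an unadjusted p of 0.05. CG32669 stands alone at the top with a change of 1.49, and tim (3.80) and per (3.48) lie farthest right among the named genes.

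The clock's own inhibitors carried the widest gaps among the core clock genes. The gene tim, whose protein pairs with PER, had levels of 10.58 and 10.30 on the DEX arrays, against 6.70 on the labelled and 6.59 on the untimed vehicle array. DEX levels were 13.9-fold higher, a log2 change of 3.80 ± 0.47 (SE, n = 2 arrays each; limma, unadjusted p = 8.82e-05, adjusted p = 0.165). The arms did not overlap and the gap was many times the distance between replicates. A second tim probe set gave 9.19 and 9.07 with DEX, against 5.18 and 5.43 with vehicle, a change of 3.83 ± 0.46. The gene per, which encodes the inhibitor PERIOD, had 11.04 and 10.74 on the DEX arrays, against 7.62 on the labelled and 7.20 on the untimed vehicle array. Its change was 3.48 ± 0.39, or 11.1-fold (limma adjusted p = 0.148). Neither gene passed the adjusted threshold over 11261 probe sets, although both were among the 5 named higher genes with the smallest p.

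The bZIP genes of the second feedback loop had unlike changes. The gene vri, whose product represses Clk, had 9.53 and 9.38 on the DEX arrays, against 7.65 on the labelled and 7.83 on the untimed vehicle array, a change of 1.71 ± 0.38 (limma, unadjusted p = 0.00277, adjusted p = 0.669). Pdp1, whose product activates Clk, had 5.48 and 5.46 with DEX, against 5.46 and 5.31 with vehicle, a change of 0.09 ± 0.42. Both genes had both DEX arrays above both vehicle arrays, but the Pdp1 change was smaller than its SE. The transcriptional repressor cwo had 8.23 and 8.51 with DEX, against 6.98 on the labelled and 7.41 on the untimed vehicle array. Its change of 1.18 ± 0.71 did not pass the unadjusted threshold (limma, unadjusted p = 0.14). A second cwo probe set had 5.61 and 5.31 with DEX, against 3.30 and 3.94 with vehicle, a change of 1.84 ± 0.63 (unadjusted p = 0.0229), so the calls of the 2 cwo probe sets differ while both arms separate in each.

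The activators and the photoreceptor showed no gap of that size. Clk had 7.21 and 7.36 on the DEX arrays, against 7.27 on the labelled and 7.94 on the untimed vehicle array, a change of -0.31 ± 0.31. With the labelled vehicle array alone the Clk change was 0.02, so its sign rests on the untimed array. The partner gene cyc had a change of -0.09 ± 0.30, with 3.52 and 3.81 under DEX, against 3.76 on both vehicle arrays. The blue-light photoreceptor gene cry had a change of 0.12 ± 0.25, with 3.24 on both DEX arrays, against 3.12 on both vehicle arrays. Both cyc and cry lay within about 1 log2 unit of the filter level, where small differences are hard to see. In all, 3 of the 8 core clock genes were higher at an unadjusted p under 0.05 and none lower, with a median change of 0.65, where 2.36% of the kept genes were higher and 1.64% lower. The clock was put on this list because of its known tie to CLK and with earlier results of these data in view, so the count describes the genes and is no independent evidence. In whole heads, a change in how many cells of a type there are and a change in RNA per cell cannot be told apart.

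**Figure D2:**
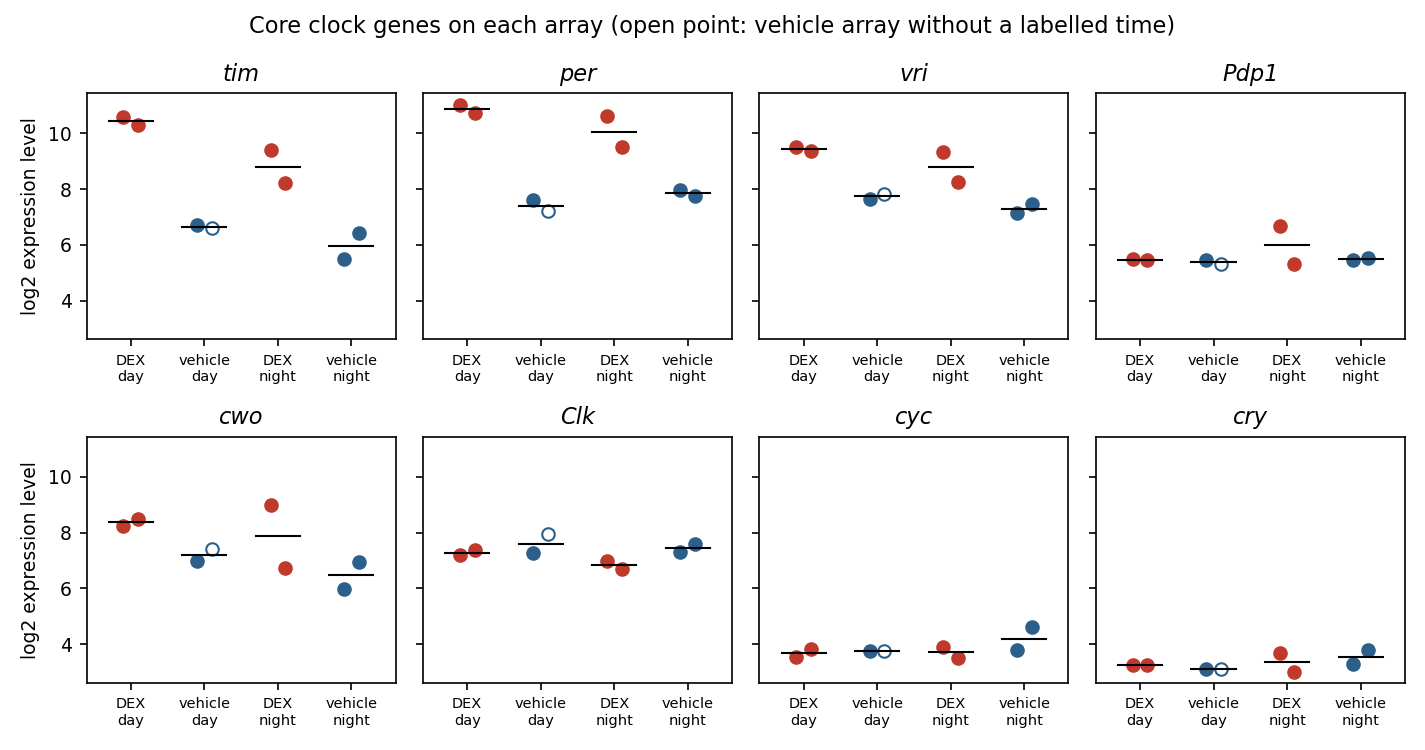
Log2 level (y axis) of 8 core clock genes on each array, by treatment and time (x axis); points are arrays, bars the mean of 2 arrays, and the open point the untimed vehicle array. By day the 2 DEX points lie above both vehicle points for tim, per, vri and cwo and, with changes smaller than their SE, for Pdp1 and cry, while Clk and cyc overlap.

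Genes whose products act on PER, TIM and CLK after translation, namely kinases, phosphatases and degradation factors, mostly differed little in RNA. Of 15 such genes listed, 10 were found on the array and 9 were tested. Of 9 tested, none was higher and 1 was lower at an unadjusted p under 0.05, with a median change of 0.06, where 1.64% of the kept genes were lower. That 1 was widerborst (wdb), a regulatory subunit of protein phosphatase 2A. It had 3.42 and 3.69 on the DEX arrays, against 4.63 on the labelled and 4.64 on the untimed vehicle array, a change of -1.08 ± 0.21 (limma adjusted p = 0.503). A second wdb probe set had a change of 0.04, at levels close to the filter, so the 2 probe sets disagree. The gene dco (doubletime), whose product phosphorylates PER, was the only kinase gene of the 9. It had a change of -0.39 ± 0.34.

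CG32669 was the gene past the adjusted threshold, and it entered the test through the DEX day arrays alone. Its level was 3.94 and 3.97 on the DEX ZT4 arrays, against 2.46 on the labelled and 2.48 on the untimed vehicle array. The change was 1.49 ± 0.07, or 2.80-fold (limma, unadjusted p = 1.83e-07, adjusted p = 0.00206). On the ZT16 arrays it had 2.55 and 2.47 with DEX, against 2.54 and 2.47 with vehicle. Both vehicle arrays and all ZT16 arrays were thus below the filter level of 2.779, so the filter favoured a probe set of this pattern. With no filter, over 18769 probe sets, the adjusted p in limma was 0.00556. The change was also 1.49 against the labelled vehicle array alone, where its adjusted p was 0.0962, and on the 4 day arrays alone no probe set passed the adjusted threshold in limma (lowest adjusted p = 0.123), although 632 (5.61%) were below an unadjusted p of 0.05.

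Transporters were among the named higher genes. In the order of p, MFS14 came just before per, while CG15096 and Picot came later, after rost. MFS14, a member of the major facilitator family of membrane transporters, had 12.79 and 12.55 on the DEX arrays, against 9.73 on the labelled and 9.65 on the untimed vehicle array. Its change was 2.98 ± 0.28, or 7.89-fold (limma adjusted p = 0.0857). CG15096 had 9.79 and 9.86 with DEX, against 6.81 on the labelled and 7.75 on the untimed vehicle array. Its change was 2.54 ± 0.43, and 3.02 against the labelled array alone, since the vehicle arrays lay nearly 1 log2 unit apart. Picot, a phosphate cotransporter, had 8.90 and 8.74 with DEX, against 6.77 on the labelled and 6.45 on the untimed vehicle array, a change of 2.21 ± 0.40 (adjusted p = 0.486 for both genes in limma).

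The rest of the anion and phosphate transporters did not follow these genes as a group. Of 14 members on the array, only 10 passed the filter and were tested. Of these, 4 were higher at an unadjusted limma p under 0.05, namely MFS14, CG15096, Picot and NaPi-T. A further 1, MFS18, was lower, where 2.36% of the kept genes were higher and 1.64% lower. NaPi-T had a change of 0.31 ± 0.13 and MFS18 of -0.37 ± 0.12, both at levels near the filter. NaPi-T had 2.88 and 3.13 with DEX, against 2.68 on the labelled and 2.71 on the untimed vehicle array. Those vehicle levels are below the filter level of 2.779, so its DEX arrays carried NaPi-T into the test. The filter therefore favours its place in the count of 4. The median of the 10 was 0.25, and 4 of the 10 changes were negative, from MFS10 at -0.72 upward. None of the 10 passed the adjusted threshold.

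Other named higher genes included genes with no role stated in the files. Tmem131, named for a family of transmembrane proteins, had 6.24 and 5.95 on the DEX arrays, against 3.45 on the labelled and 3.91 on the untimed vehicle array, a change of 2.41 ± 0.29 or 5.33-fold (limma adjusted p = 0.148). The gene rost (rolling stone), known from the fusion of muscle precursor cells, had 6.78 and 6.56 with DEX, against 4.86 and 5.14 with vehicle. Its change was 1.67 ± 0.28. GATAe, a GATA transcription factor known from the midgut, had 5.16 and 5.11 with DEX, against 3.69 and 4.12 with vehicle, a change of 1.23 ± 0.21. CG6928 had a change of 1.28 ± 0.20, CG15861 of 1.42 ± 0.23 and CG31800 of 0.82 ± 0.14, each with a limma adjusted p of 0.486. For CG15861 the DEX levels were 4.53 and 3.80. Its vehicle levels, 2.73 on the labelled and 2.76 on the untimed array, lay below the filter level of 2.779. On all 12 named higher genes, both DEX arrays were above both vehicle arrays, which 17.5% of all probe sets also show in that direction.

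The changes of the 12 named lower genes lay between -1.58 and -0.52, with adjusted p from 0.503 to 0.844 in limma, so none passed. CG14567 had 8.59 and 8.44 on the DEX arrays, against 10.27 on the labelled and 9.91 on the untimed vehicle array, a change of -1.58 ± 0.42. CG15515 had 4.43 and 4.87 with DEX, against 6.27 and 6.07 with vehicle, a change of -1.52 ± 0.33. The other named lower genes were all under 6 on the log2 scale on every day array. Among them, shg, which encodes the adhesion protein E-cadherin, had 3.07 and 3.24 with DEX, against 3.96 and 4.03 with vehicle. Its change was -0.84 ± 0.16. Cnep1r2, a regulator of a nuclear envelope phosphatase, had 3.50 and 3.70 with DEX, against 4.62 and 4.60 with vehicle, a change of -1.01 ± 0.20. Galphaf, a G protein alpha subunit, had a change of -1.42 ± 0.36, and etaTry, a trypsin, of -0.80 ± 0.18. CG7857, CG13116, CG13024, CG1136 and CG13284 had changes between -1.13 and -0.52.

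**Figure D3:**
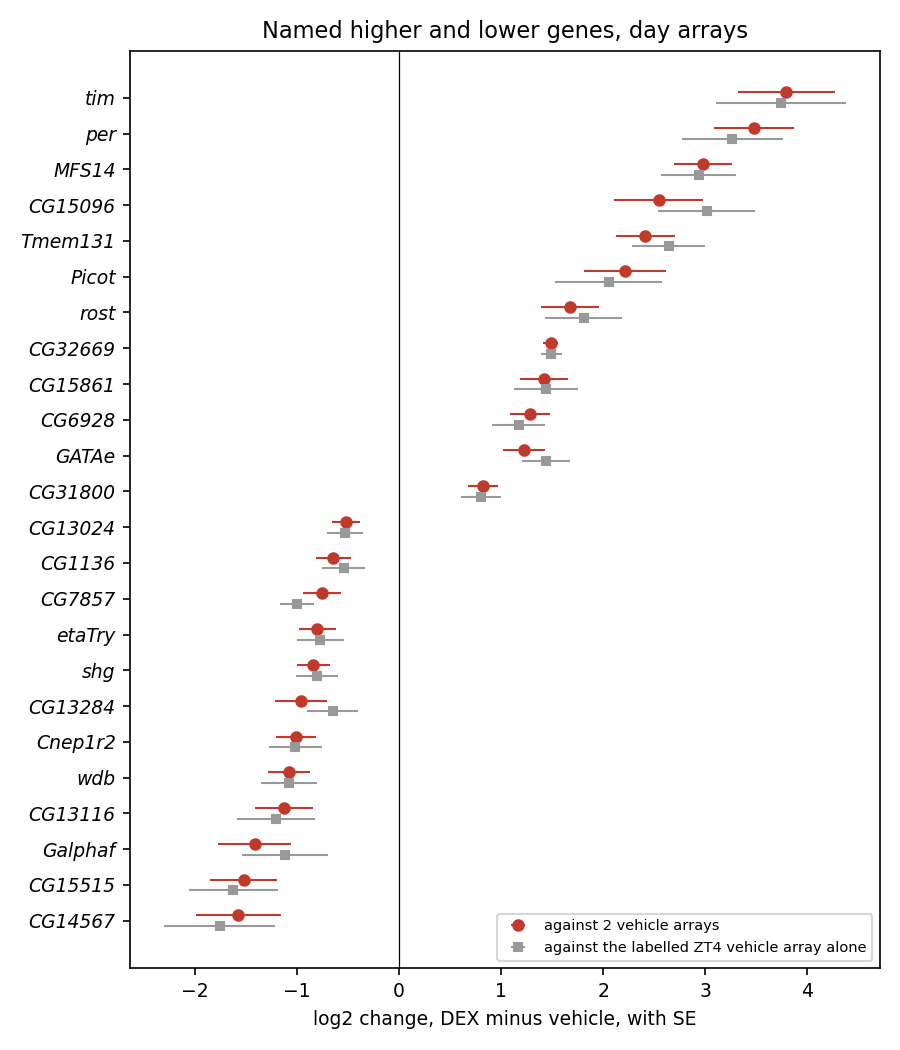
Log2 change with its SE (x axis) of the 12 named higher genes and 12 named lower genes (y axis), against 2 vehicle arrays (red circles) and against the labelled ZT4 vehicle array alone (grey squares). All 12 higher and all 12 lower genes keep their sign with the labelled array alone, and the change of CG15096 is 3.02 with the labelled array alone, against 2.54 with both.

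The Enhancer of split complex holds bHLH repressors and Bearded-family genes that Notch signalling switches on, and cwo belongs to the same bHLH-Orange class. Of the 8 tested members of both groups, 3 were higher at an unadjusted p under 0.05 and none lower, where 2.36% of the kept genes were higher and 1.64% lower, and none passed the adjusted threshold in limma. E(spl)mbeta-HLH had 11.81 and 11.51 on the DEX arrays, against 8.44 on the labelled and 8.91 on the untimed vehicle array, a change of 2.99 ± 0.69 (limma, unadjusted p = 0.00342, adjusted p = 0.701). E(spl)m2-BFM had 6.16 and 5.34 with DEX, against 2.75 and 3.37 with vehicle, a change of 2.69 ± 0.80. E(spl)m3-HLH had 5.96 and 4.66 with DEX, against 2.70 and 2.71 with vehicle, a change of 2.61 ± 1.03. The other 5 did not pass. All 8 changes were positive, with a median of 0.89. The median over all kept genes was -0.0007. The filter favours such a count: of 13 members on the array only these 8 passed it. E(spl)m3-HLH averaged 2.70 on the day and 2.75 on the ZT16 vehicle arrays, below the filter level of 2.779. Its DEX arrays therefore carried it into the test. E(spl)malpha-BFM had 3.79 and 2.68 with DEX, against 2.61 and 2.65 with vehicle. The count and median describe the tested members only. Neighbouring genes of 1 complex are not separate samples, and hry (hairy), at 11 to 12 on every day array, had a change of 0.25 ± 0.40.

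The tested alkaline phosphatases split between genes with wide gaps and genes with none. Of 13 on the array only 7 passed the filter, so the split describes these 7 alone. Alp4, the enzyme also known from the Malpighian tubule and brain, had 6.01 and 5.32 on the DEX arrays, against 4.16 on the labelled and 3.84 on the untimed vehicle array. Its change was 1.67 ± 0.31 (limma, unadjusted p = 0.000963, adjusted p = 0.486). Alp10 had 7.97 and 5.23 with DEX, against 2.85 and 4.26 with vehicle, and Alp9 had 7.94 and 4.55 with DEX, against 2.51 and 3.44 with vehicle. Their changes of 3.05 ± 1.18 and 3.28 ± 1.28 matched that of MFS14 in size but rested on DEX arrays that were themselves over 2 log2 units apart. Alp9 averaged 2.97 on the day and 2.46 on the ZT16 vehicle arrays, around the filter level of 2.779, so its DEX arrays carried it into the test. The other 4 tested, Alp11, Alp12, Alp13 and phu, had a change of -0.47 to 0.05, and the median of the 7 was 0.05.

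The genes sug and cbt, from different lists, were higher at an unadjusted p under 0.05. The gene sug (sugarbabe), a zinc finger factor induced by dietary sugar, had 9.94 and 9.91 on the DEX arrays, against 7.54 on the labelled and 7.82 on the untimed vehicle array, a change of 2.25 ± 0.59 (limma, unadjusted p = 0.00647, adjusted p = 0.844). The gene cbt (cabut), a repressor that also responds to sugar, had 10.23 and 10.56 with DEX, against 8.70 and 9.11 with vehicle, a change of 1.49 ± 0.47. Mondo, the sugar-sensing factor that is known to drive both, had 6.28 and 6.01 with DEX, against 4.79 and 5.05 with vehicle, a change of 1.23 ± 0.44; it was picked after its values were seen. Pepck1, a gluconeogenic enzyme, had 11.02 and 11.04 with DEX, against 11.51 and 11.86 with vehicle, a change of -0.65 ± 0.21. The 19 insulin, starvation and lipid storage genes had 1 higher call (sug) and 1 lower call (Pepck1) and a median of 0.09, and the 22 rhythmic output genes had 4 higher calls (MFS14, CG15096, sug and Lk6) and a median of 0.07, where 2.36% of the kept genes were higher and 1.64% lower.

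Among the 108 genes at least 2-fold higher without overlap, several enzymes of small-molecule metabolism had wide gaps; those named here were picked after their values were seen. CG7365 had the largest change of the 108, with 7.94 and 7.23 on the DEX arrays, against 2.92 on the labelled and 2.93 on the untimed vehicle array. That is a change of 4.66 ± 0.93 or 25.3-fold, with a limma adjusted p of 0.604. The predicted uridine kinase gene l(2)k01209 had 8.60 and 8.19 with DEX, against 5.59 and 5.35 with vehicle. Its change was 2.93 ± 0.61. Gk2, a glycerol kinase, had a change of 2.27 ± 0.48, Nadk1a, an NAD kinase, of 2.25 ± 0.47, and fbl, the pantothenate kinase of coenzyme A synthesis, of 1.81 ± 0.40. SerT, the serotonin transporter, had 5.20 and 5.29 with DEX, against 3.21 and 3.14 with vehicle, a change of 2.07 ± 0.49. Cipc, the fly relative of a protein known in mice to bind CLOCK, had 6.15 and 6.29 with DEX, against 4.45 and 4.66 with vehicle, a change of 1.67 ± 0.69. Treh (trehalase) had a change of 1.25 ± 0.43 and CAH1 (carbonic anhydrase) of 1.73 ± 0.43.

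In most other gene groups of the head no member was called, by the probe set that stands for each gene. None of the 11 heat shock and chaperone genes, 16 immune genes, 11 ecdysone response genes, 18 phototransduction genes, 29 neuronal genes, 18 neuropeptide genes, 30 ribosomal protein genes, 26 proteasome genes or 58 respiratory chain genes passed an unadjusted p of 0.05 in limma in either direction. Over all kept genes only 2.36% were higher and 1.64% lower by this rule. Few or no calls in the lists of this paragraph therefore do not set a group apart. The medians of the lists just given lay between -0.12 for the immune and 0.18 for the heat shock genes. Another probe set of rdgA, a kinase of phototransduction, was lower (-0.634, unadjusted p = 0.0401), although the one that stands for it was not called. The heat shock median was -0.10 against the labelled vehicle array alone, so its sign is not settled. The widest change in these lists was that of ninaB, the oxygenase that makes retinal for the visual pigments. It had 7.03 and 6.001 on the DEX arrays, against 4.88 on the labelled and 3.86 on the untimed vehicle array, a change of 2.14 ± 1.11 that did not pass (unadjusted p = 0.0957). In the remaining small groups, cbt was the 1 call among 8 activity-regulated genes, Obp57b (-1.10 ± 0.46, lower) the 1 among 27 odorant binding proteins, and no haemocyte gene of 11 was called.

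Genes of the head fat body, the tissue that makes yolk and storage proteins, varied between arrays of the same arm. Of 11 tested, 9 had negative changes, the median was -0.47, and none was called at an unadjusted limma p under 0.05. Over all kept genes, 49.8% had positive changes, 2.36% were called higher and 1.64% lower. With 11 genes, the lack of a call is close to those shares. Lsp2, a storage protein, had 5.68 and 6.78 on the DEX arrays, against 9.18 on the labelled and 7.16 on the untimed vehicle array. The gene fit (female-specific independent of transformer) had 5.52 and 8.15 with DEX, against 9.85 and 7.50 with vehicle, so its arms overlap. Summed over the 11 genes on the linear scale, the level was 37396 and 61173 on the DEX arrays, against 78486 on the labelled and 56876 on the untimed vehicle array. DEX replicate 1 was low and the labelled vehicle array high, while DEX replicate 2 and the untimed array were close. Fbp1, which marks larval fat body, was below the filter on every array. Against the labelled vehicle array alone the median was -0.85.

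Most detoxification genes had negative changes. Of 47 cytochrome P450, glutathione transferase and UDP-glycosyltransferase genes, 35 had negative changes, the median was -0.18, and 2 were lower at an unadjusted p under 0.05 with none higher, where 1.64% of all kept genes were lower. Negative changes were about as frequent in lists with no call, at 42 of 58 respiratory chain genes (median -0.09) and 22 of 30 ribosomal protein genes (median -0.04). Cyp6a8 had 6.60 and 6.55 on the DEX arrays, against 7.94 on the labelled and 7.67 on the untimed vehicle array, a change of -1.23 ± 0.46. GstE6 had 4.17 and 3.90 with DEX, against 4.63 and 4.99 with vehicle, a change of -0.77 ± 0.28. The part of fat body content in these values was not tested. Among glial and muscle genes the calls were 1 each: Inx2, a gap junction protein, was lower, with 4.35 and 4.55 under DEX, against 5.34 and 6.06 under vehicle, and Act88F, an actin of flight muscle, was higher by 0.44 ± 0.18. The medians of these lists were -0.02 over 15 glial genes and -0.18 over 17 muscle genes.

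**Figure D4:**
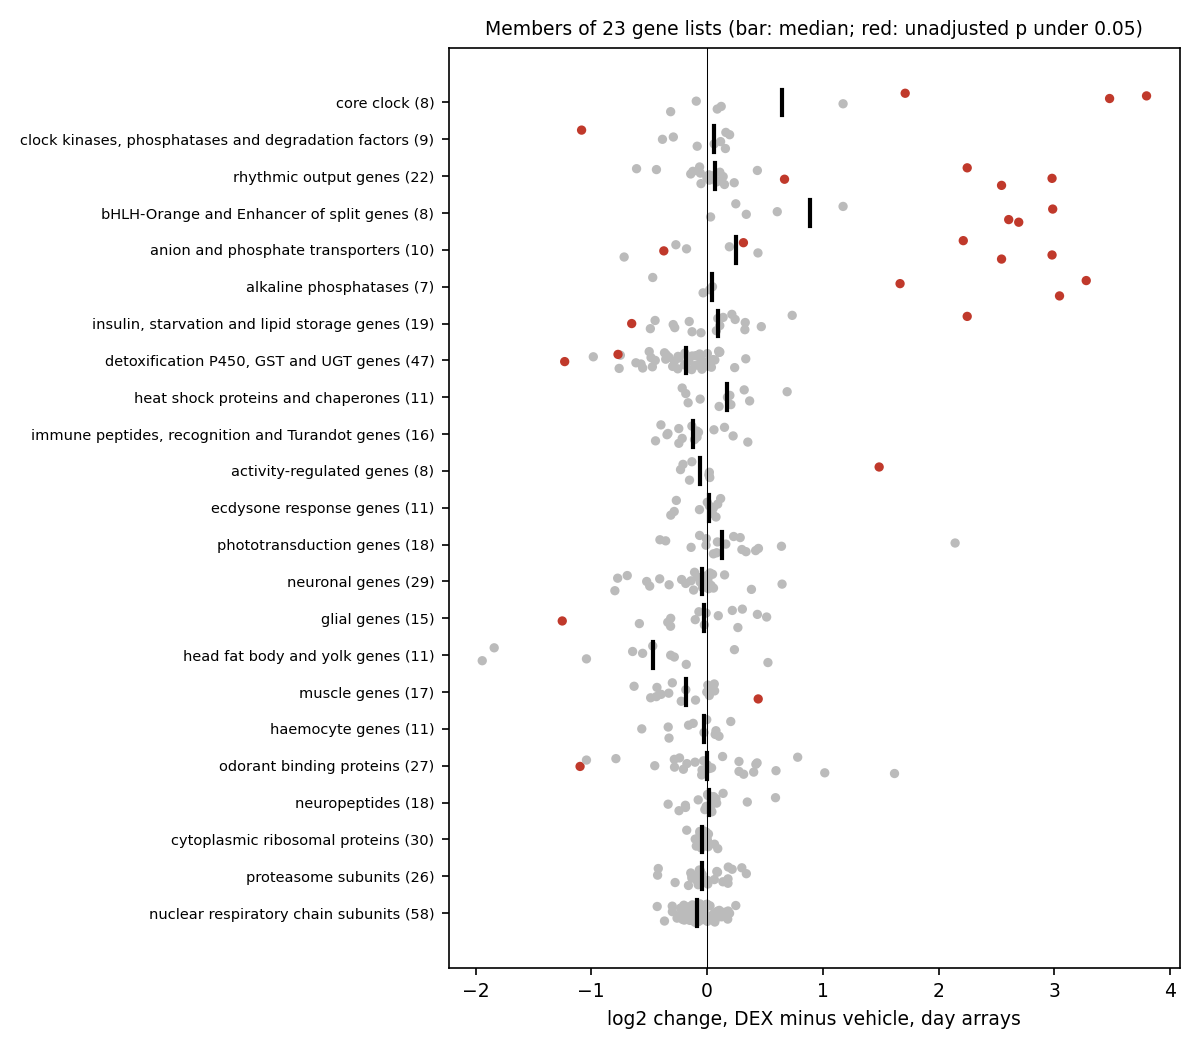
Log2 change (DEX minus vehicle, day arrays; x axis) of each tested member of 23 gene lists (y axis, number tested in brackets); black bars are list medians and red points members with an unadjusted limma p under 0.05. Red points to the right of 1 occur in the core clock, rhythmic output, bHLH-Orange, transporter, alkaline phosphatase, insulin and activity-regulated lists, while most other lists sit around 0.

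The balance of unadjusted calls depended on which arm was reduced to 1 array. With the labelled vehicle array alone, no probe set of 11261 passed the adjusted threshold in limma, and 450 (4%) were called at an unadjusted p under 0.05, 128 higher (1.14%) and 322 lower (2.86%). With the untimed vehicle array alone they were 497, of which 142 were higher, so either vehicle array alone gave mostly lower calls. Without DEX replicate 1 the calls were 427, of which 334 were higher, and without DEX replicate 2 they were 461, of which 382 were higher. With all 4 day arrays 223 were higher and 161 lower, and all these fits share arrays. Of the 37 genes at least 2-fold lower without overlap, 25 were still 2-fold lower against the labelled array alone, and of the 108 at least 2-fold higher, 100 were. Within the 37, the vehicle arrays were themselves over 2-fold apart at 13 genes, and the untimed array was the higher one at 11 of these. CG10911, CG12780, CG13482 and CG10912 were 2.00 to 2.16 log2 units higher on the untimed than on the labelled vehicle array. The gene Fst (Frost), known for its response to cold, had the most negative change of the 37, with 5.94 and 5.88 on the DEX arrays, against 7.72 on the labelled and 8.88 on the untimed vehicle array. Its change was -2.39 ± 0.76 against both vehicle arrays and -1.81 against the labelled array alone. The clock genes tim, per and vri depended little on this choice, with changes of 3.74 ± 0.63, 3.27 ± 0.49 and 1.80 ± 0.51 against the labelled array alone.

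At night tim, per and vri were also higher with DEX. On the ZT16 arrays tim had 9.42 and 8.21 with DEX, against 5.49 and 6.43 with vehicle, a change of 2.85 ± 0.47. The gene per had 10.62 and 9.52 with DEX, against 7.96 and 7.76 with vehicle, a change of 2.21 ± 0.39, and vri had a change of 1.49 ± 0.38. The day change was wider for tim by 0.94 ± 0.67 (limma, unadjusted p = 0.202) and for per by 1.27 ± 0.55 (unadjusted p = 0.0544), so neither difference passed the unadjusted threshold. Over all probe sets at ZT16, 394 were called at an unadjusted p under 0.05 (3.5%) and none after adjustment. The DEX and vehicle pairs at ZT16 were spread more widely than the day pairs, as given above.

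Across the 12 named higher genes, 11 had the same sign at ZT16, 8 without overlap between the arms, as in 10.1% of all probe sets by night. At an unadjusted p under 0.05, 6 were higher, where 1.75% of all probe sets were. These 6 were tim, per, MFS14, CG15096, Picot and Tmem131. MFS14 had 11.85 and 11.09 with DEX at ZT16, against 9.24 and 9.52 with vehicle, a change of 2.09 ± 0.28. The other 6, CG32669, CG6928, CG15861, GATAe, rost and CG31800, had night changes between -0.10 and 0.41. Of the 12 named lower genes, 9 had the same sign at ZT16, 3 without overlap (13.8% of all probe sets), and 2, CG14567 (-1.38) and CG15515 (-1.13), passed an unadjusted p of 0.05, where 1.75% of all probe sets were lower. The 108 genes at least 2-fold higher by day had a median night change of 0.86 with 101 of the same sign, and the 37 at least 2-fold lower had a median of -0.04 with 22 of the same sign. The day and night arrays are separate, but both tests use the same estimate of spread for a gene. Genes named by a small day p are therefore favoured in the night test, and 1.75% is no even comparison for them. All these sets were chosen by their day values, which favours wider changes by day. Over all 11261 probe sets the day and night changes correlated weakly, with Pearson's r at 0.27 and Spearman's rho at 0.08, over probe sets that are not independent.

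A test of the difference between day and night called 1 probe set, CG32669, after adjustment (0.00888% of 11261), and 264 (2.34%) before it, 146 with the more positive change by day (1.3%) and 118 with the more positive change by night (1.05%). With each array centred on its median 284 were called, 110 of them with the more positive change by day. Single night arrays decide much of this count: it was 710 without DEX ZT16 replicate 1, 442 without DEX ZT16 replicate 2, 512 without vehicle ZT16 replicate 1 and 1471 without vehicle ZT16 replicate 2. For CG32669 the day change of 1.49 stood against a night change of 0.01, a difference of 1.48 (limma adjusted p = 0.023); the adjusted p was 0.0588 with no filter and 0.0597 to 0.424 with 1 array left out, so this call depends on the filter and on every array. CG15861 and CG6928 had differences of 1.52 and 1.16, with the higher level on DEX day arrays. CG30033 had 4.88 and 4.59 with DEX by day, against 4.03 and 3.97 with vehicle, but 3.48 and 2.79 with DEX at night, against 3.93 and 3.96 with vehicle. Its arms therefore separated in opposite directions, with a difference of 1.55 ± 0.36. KrT95D had a difference of 1.15 ± 0.30. In the other direction, Nplp1, a neuropeptide precursor, had a change of -0.08 by day and of 0.84 at night, sPLA2, a secreted phospholipase, of -0.40 and 0.96, and Sk1, a sphingosine kinase, of -0.37 and 0.73. The adhesion gene shg and the phosphatase subunit wdb, lower by day, had a change of -0.02 and 0.11 at night. Apart from CG32669, all of these had an adjusted p of 0.985 for the difference and did not pass.

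**Figure D5:**
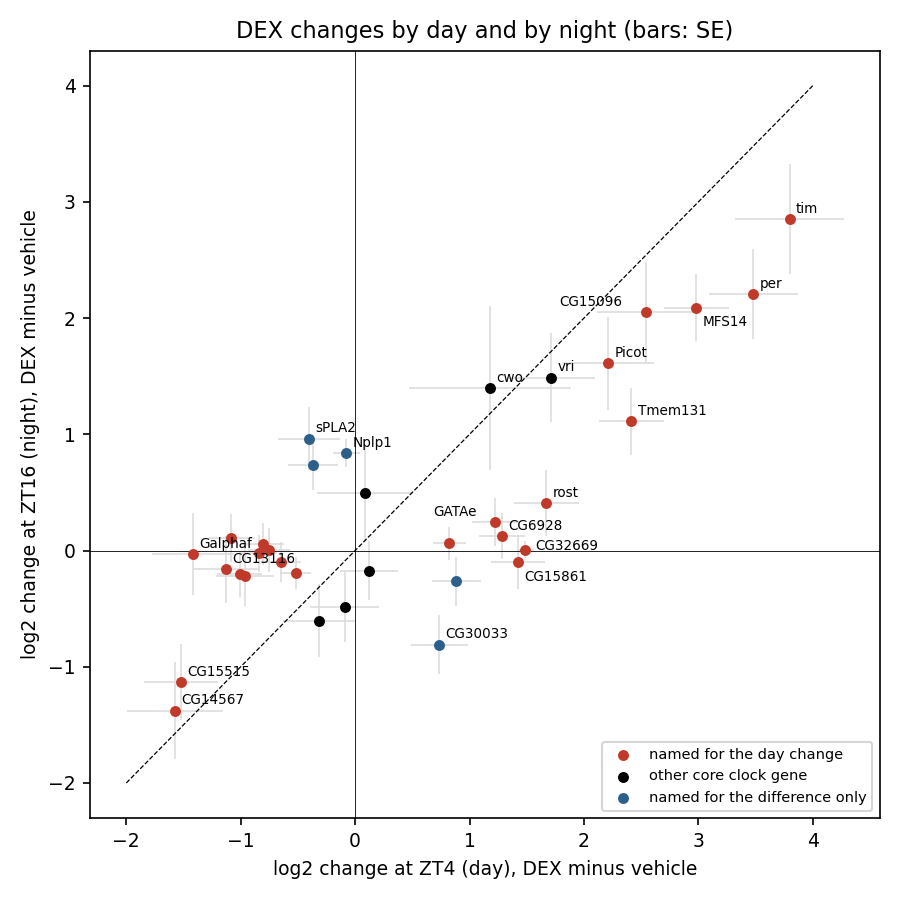
Log2 change with DEX at ZT4 (x axis) against that at ZT16 (y axis), with SE bars, for the genes named for the day change (red), the other core clock genes (black) and the genes named for the difference alone (blue); the dashed line marks equal change. The genes tim, per, MFS14, CG15096, Picot and Tmem131 lie high at both times, whereas CG32669, CG15861, CG6928 and GATAe lie near 0 on the y axis.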

How the data were processed

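Each array's values come from the table of 8 arrays of 1 Affymetrix design; 4 further arrays, in a separate table, were not used. The values the authors deposited are intensities on a linear scale, and the submitters' processing notes name GCRMA. Its settings, version and probe definitions and the genome build are not stated, so no coordinates or sequences are printed. Deposited values reached 2277728 among non-control probe sets, above the 65535 of a 16-bit scanner, and their natural logs reached 14.64, so each natural log was read as the log2 level, as if values had been exponentiated with base e. Under log2 of the deposited values, changes and errors would be 1.44 times as large with the same p-values.

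Control probe sets (183) were left out. Of the other 18769, 13647 had 1 gene in the platform annotation, 402 had several and 4720 had none; 13544 names were found in a RefSeq gene table. Probe sets with several genes name none, and where a gene had more than 1 probe set the brightest on average stands for it.

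Tests used limma 3.58.1 under R 4.3.3, with a trended eBayes prior, on 8 arrays with 4 means and 4 residual degrees of freedom, with Benjamini-Hochberg adjustment over 11261 probe sets. The untimed vehicle array was taken as a day array; with the labelled array alone, the spread of its arm is taken from the other groups. The plan assumed log values or a linear table, and the base was chosen after values were seen. Named are, among genes whose higher arm averaged at least 3.779, the 12 per direction with the largest changes past the threshold, filled by smallest p, 5 per direction for the difference between times, every core clock gene, and the 3 members of each of 23 lists with the smallest p. The members and lists were chosen with earlier results of these data known. The fits were tested on simulated data. Precision is limited by the number of arrays.

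Alternatives changed the arrays in the fit, the filter, the normalization, the log scale, the variance model, array weights (statmod 1.5.0), the probe set and a block for replicate numbers.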

Additional observations from a re-analysis of the deposited data

Results flagged for a closer look

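CG32669 passed the adjusted threshold for a difference between times, but through the DEX day arrays that also carried it past the filter. Its change with DEX was 1.49 at ZT4 and 0.01 at ZT16, a difference of 1.48 on the log2 scale (limma interaction, adjusted p = 0.023), with the 2 DEX ZT4 arrays higher than all 6 other arrays. Those 6 arrays lay between 2.46 and 2.55, below the filter level. With no filter the adjusted p was 0.0588, and with any 1 of the 8 arrays left out the difference stayed between 1.44 and 1.52 but its adjusted p was 0.0597 to 0.424.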

How the results depend on the processing

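The ZT4 count after adjustment was 1 without a filter, with quantile normalization, median centring, log2 of the deposited values or the replicate block, each time CG32669. It was 0 with the labelled vehicle array alone (lowest adjusted p = 0.0962), with the 4 day arrays alone (0.123), without the variance trend (0.0762) and with a 60th percentile filter, where CG32669 was not tested. With array weights it was 6: CG32669, 2 probe sets of tim, per, MFS14 and Tmem131. Leaving out 1 array gave 0 to 6: 0 without the untimed vehicle array, 2 without DEX ZT4 replicate 2, 3 without the labelled vehicle array, and 6 without either DEX ZT16 array (CG32669, per, MFS14, SerT, CG7365 and CG8008). The difference between times counted 0 with the labelled vehicle array alone, no filter, the 60th percentile filter, no trend or the replicate block (lowest adjusted p = 0.129), and 0 to 1 with an array left out; that 1, without DEX ZT16 replicate 1, was Acbp5 at -5.05. At an unadjusted p under 0.05 the ZT4 count of 384 became 632 with the 4 day arrays alone and 670 with array weights, and the difference count of 264 became 439 with no filter and 160 with the 60th percentile filter. With log2 of the deposited values, 182 genes were at least 2-fold higher (108 before) and 148 lower (37 before), by construction of the scale. The difference of replicate 1 minus replicate 2 in the DEX ZT4 arm correlated at -0.0149 with that in the day vehicle arm. The labels do not say whether same-numbered arrays are pairs, and this value cannot settle it. The cause of these shifts was not tested.

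Counted over named genes and settings together, 1575 ZT4 values kept sign and side of the threshold. A further 8 crossed to a called value, 4 left it and 19 turned sign, to values of at most 0.20 in size. Many could not turn: another filter, log scale or variance trend, or a night array left out, keeps the sign of the ZT4 change. Apart from CG32669 the named genes were uncalled to begin with. These counts therefore do not measure how stable the values are. With the labelled vehicle array alone, which is also the fit without the untimed array, Clk was 0.022, kay 0.00069, rdgA 0.038 and Burs 0.135. Other probe sets gave 0.037 for wdb (-1.08 before), 0.074 for kay, 0.016 for Eip93F, 0.20 for ftz-f1, 0.014 for rdgA (its other 2 gave -0.634 and -0.221) and -0.0053 for Obp19c (1.62 before). With each array left out in turn, Clk ran from -0.651 to 0.022, cyc from -0.239 to 0.053, kay from -0.416 to 0.00069, rdgA from -0.752 to 0.038, PPO1 from -1.22 to 0.088, Burs from -0.62 to 0.135, RpS7 from -0.417 to 0.066, RpL10Ab from -0.00754 to 0.193 and RpS28a from -0.135 to 0.015. The difference between times ran likewise from -0.046 to 0.627 for Clk, -0.045 to 0.64 for cry, -1.35 to 0.902 for cwo, -0.027 to 0.817 for cyc, -1.08 to 0.27 for Pdp1 and -0.318 to 0.767 for vri.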

Other observations

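Genes of ion and metal transport that no list held were among the genes at least 2-fold apart without overlap, and were picked after their values were seen. Zip99C, a zinc and iron transporter of the ZIP family, had 6.38 and 6.71 on the DEX arrays, against 4.92 on the labelled and 5.63 on the untimed vehicle array (change 1.27 ± 0.42). ZnT63C, a zinc exporter, had 6.43 and 6.19 with DEX, against 5.55 and 4.97 with vehicle (1.06 ± 0.39). In the other direction, Zip89B had 4.46 and 4.34 with DEX, against 5.92 and 5.79 with vehicle, a change of -1.46 ± 0.50 by day and -1.48 by night. The proton pump subunit genes Vha100-2 and Vha100-5 had changes of 1.11 ± 0.43 and 1.29 ± 0.63, and the potassium channel gene Irk2 of 1.25 ± 0.40. None passed the adjusted threshold in limma.

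Some wide day changes rested on 1 array. The gene mat had 2.57 and 6.52 on the DEX arrays, against 2.55 on the labelled and 2.53 on the untimed vehicle array, so DEX replicate 2 alone stood apart. CG32483 had 5.13 and 3.18 with DEX, against 2.59 and 2.79 with vehicle, with DEX replicate 1 the higher one.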
